A study of Bos taurus with 8 samples.

Results

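The 10 genes described here encode ligands of the growth and differentiation factor (GDF) and bone morphogenetic protein (BMP) family, *GDF2*, *GDF5*, *GDF6*, *GDF10* and *BMP2* to *BMP7*. They were taken by gene name from the count table, where each of the 10 names matched 1 of 24596 counted genes. Chondrocytes were isolated from the knee cartilage of wild-type bovine calves aged 1 to 2 weeks, separately from the superficial zone (SZCs) and the deep zone (DZCs), and both were cultured in medium with fetal bovine serum for 3 days before RNA was sequenced. There were 2 libraries from each zone, and the labels name no added factor for any of these 4 cultures. Slices from several cores of a joint were placed together in a tube, cells were released by enzymes without sorting, and the tissue between the zones was discarded. Each library is therefore a mixture of all cells that a zone's slices gave after culture. The paper used RNA-Seq to look for transcription factor genes particular to the lubricin-producing SZCs.

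BMPs and GDFs are secreted proteins that act as dimers. They bring together type I and type II receptor kinases at the cell surface, the type I receptor phosphorylates receptor-regulated SMAD proteins, and these enter the nucleus with SMAD4 and activate genes such as the *ID* genes. In the limb, *GDF5* and *GDF6* mark the cells where joints form and are needed to separate some skeletal elements, whereas *BMP2*, *BMP4* and *BMP7* promote cartilage and bone formation. *GDF10* and *BMP3* are the most divergent ligands of the group, and *BMP3* is known to oppose BMP signals. *GDF2*, also called *BMP9*, is made mainly by the liver and acts on endothelial cells.

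The libraries held between 19918970 and 21890549 counts. Levels are given as CPM, in which libraries are put on 1 scale and corrected by the trimmed mean of *M* values (TMM), and at these depths 3 counts, the smallest level taken as shown, corresponded to between 0.129 and 0.187 CPM. Lengths of transcripts were not taken into account, so levels are compared between libraries and not between genes. *PRG4*, which encodes lubricin, was at 3166 and 2024 CPM in SZCs against 15.3 and 61.5 CPM in DZCs, so the libraries separated as their zone labels give. All 10 chondrocyte markers examined were detected in every library, with a summed level of 120800 and 123400 CPM in SZCs and 486000 and 188500 CPM in DZC replicates 1 and 2. Of these sums *COL2A1* alone took 64980, 55520, 333200 and 118900 CPM. Of the 10 markers, 5 did not overlap between the zones with DZCs higher, *COL2A1* among them. The only marker that passed the exact test of edgeR was *MATN3*, at 48.5 and 77.5 CPM in SZCs against 186 and 334 CPM in DZCs. In contrast, *SOX5* and *SOX6* did not overlap with SZCs higher. The DZC libraries differed from each other. Summed over 5 proliferation genes, DZC replicate 1 was at 11.1 CPM and DZC replicate 2 at 258 CPM, against 144 and 169 CPM in SZCs. Over 11 genes of hypertrophic cartilage and bone, sums were 42.7 and 291 CPM in DZCs and 115 and 113 CPM in SZCs. Of these sums *SPP1* alone took 18.9, 201, 108 and 102 CPM in the same order. Of the 6 of these genes that were tested, 5 were lower in SZCs. *IHH* passed the exact test of edgeR with DZCs higher, at 12.1 and 2.15 CPM against 0.591 and 0.215 CPM in SZCs. *RUNX2* did not pass, but did not overlap between the zones, with DZCs higher. Summed over 6 fibroblast genes, the SZC libraries were at 16530 and 24720 CPM and the DZC libraries at 4291 and 13670 CPM, and of these genes *COL1A2* and *COL3A1* did not overlap between the zones with SZCs higher, *PDPN* did not overlap with DZCs higher, and 0 of the 6 passed the exact test of edgeR. The zones thus differed in this sum in the same direction as the *GDF* ligands that were called, and its part in their levels was not tested. Markers of immune cells (5 genes) summed to between 2.55 and 12.2 CPM and those of endothelial cells (5 genes) to between 3.86 and 10.6 CPM.

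In SZCs, *GDF5*, *GDF6*, *GDF10* and *GDF2* were higher than in DZCs, whereas no ligand was called higher in DZCs. In the exact test of edgeR at an FDR threshold of 0.05, 4 of the 10 ligands passed and all 4 were higher in SZCs, against 2.23% of the 12857 tested genes called higher in SZCs and 0.700% called higher in DZCs. Of the 6 others, *BMP2*, *BMP4*, *BMP5*, *BMP6* and *BMP7* were tested and did not pass, and *BMP3* had too few counts to be tested. *GDF2* and *GDF6* passed the filter on low counts only through their SZC libraries, which leaves little room for a call in the other direction. Of the 7 other tested ligands, *GDF5* and *GDF10* passed. The ligands were chosen with earlier results of these data known, so their share called is a description. The median log2 difference (the log2 fold change of SZCs over DZCs) of the 9 tested ligands was 1.51, against -0.04 for all tested genes, and it was 1.08 for the 7 ligands other than *GDF2* and *GDF6*. The libraries of the zones did not overlap for 7 of the 9, all with SZCs higher, against 21.0% of tested genes with SZCs higher and 20.5% with DZCs higher. The 7 include *GDF2* and *GDF6*, and for *BMP4* the separation was smaller than the rounding of its levels. These calls depended on the test, since edgeR's quasi-likelihood test called 0 of the 12857 genes (0%) and so 0 ligands, with 1126 genes and 4 ligands at an unadjusted p below 0.05, while DESeq2 called 397 genes (3.09%) and the same 4 ligands. The number of ligands called was 1 without SZC replicate 1, 3 without SZC replicate 2, and 5 without either DZC library, where 0.436%, 1.13%, 6.67% (DZC replicate 1) and 20.7% (DZC replicate 2) of all tested genes were called.

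**Figure D1:**
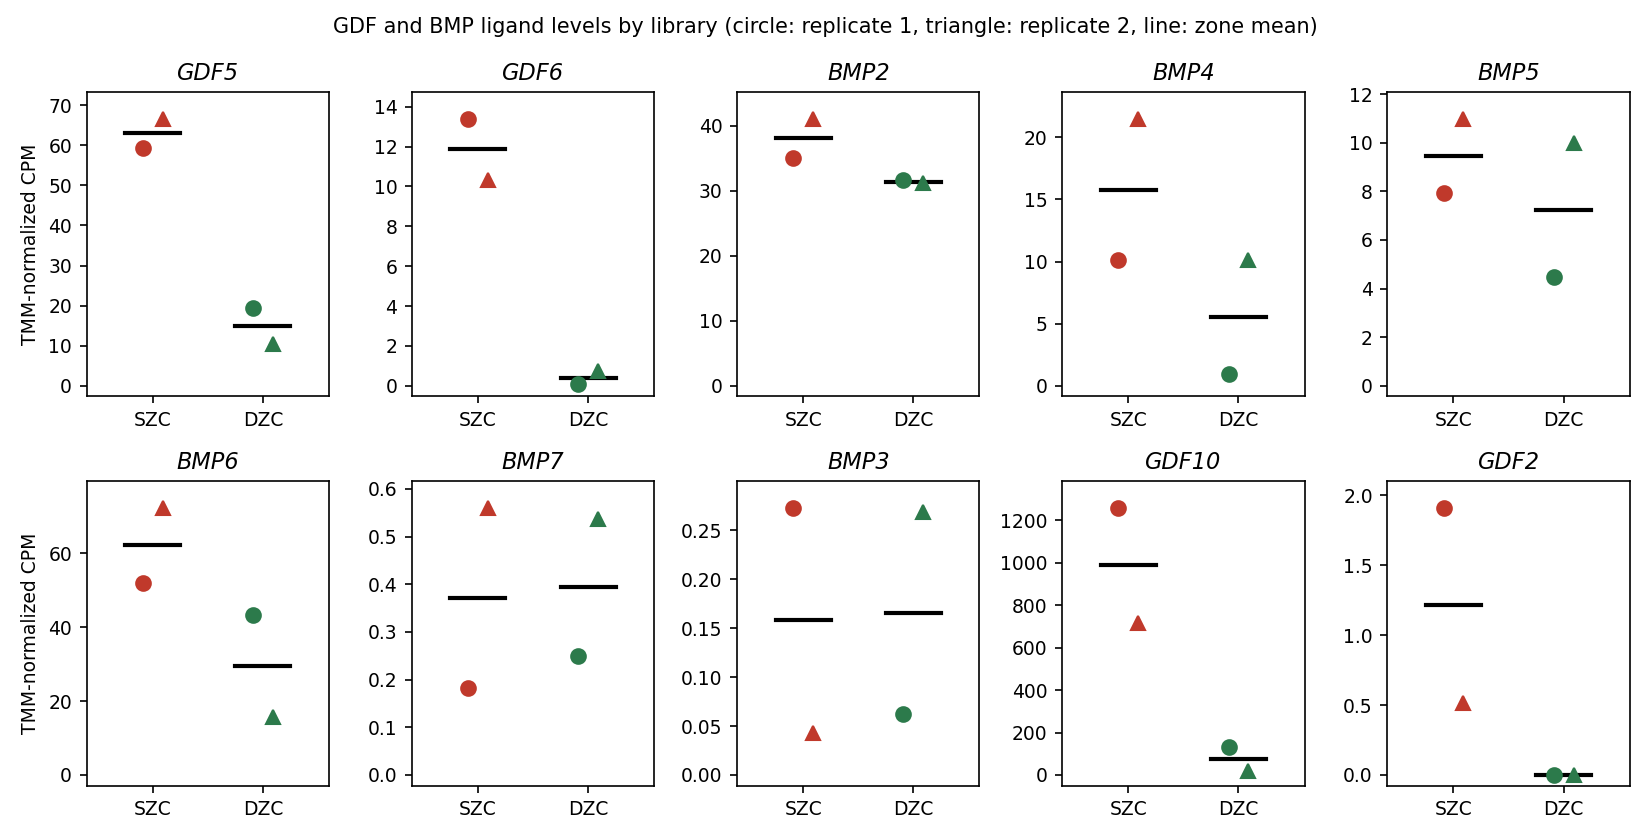
Level of each ligand in every library, as TMM-normalized CPM on a linear axis from 0 that differs between panels, with SZC libraries in red, DZC libraries in green and the mean of each zone as a line. *GDF5*, *GDF6*, *GDF10* and *GDF2* separate by zone, *BMP2* is nearly level at 35.1 and 41.1 CPM against 31.6 and 31.2 CPM, and *BMP7* and *BMP3* lie below 1 CPM in all 4 libraries.

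*GDF5*, the joint-forming ligand (ENSBTAG00000004429), gave 1308 and 1547 counts in SZCs against 311 and 234 counts in DZCs. These counts correspond to 59.4 and 66.7 CPM in SZCs and 19.4 and 10.5 CPM in DZCs. Both SZC libraries lay above both DZC libraries, and the lower SZC library was 3.07-fold above the higher DZC library. The SZC libraries differed from each other by 1.12-fold and the DZC libraries by 1.84-fold. *GDF5* was 4.23-fold higher in SZCs, a log2 difference of 2.08 (SE 0.42, FDR 0.000283 in the exact test of edgeR). The call was lost when either SZC library was left out, with an FDR of 0.123 without SZC replicate 1 and 0.124 without SZC replicate 2 and log2 differences of 2.15 and 1.99.

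*GDF6* encodes the closest relative of *GDF5* among these ligands (ENSBTAG00000007687). SZCs gave 295 and 240 counts of it, whereas DZC replicate 1 gave a single count (1) and DZC replicate 2 gave 16. Its levels were 13.4 and 10.3 CPM in SZCs and 0.0622 and 0.717 CPM in DZCs. Even the higher DZC library was 14.4-fold below the lower SZC library. The single count in DZC replicate 1 has a 95% Poisson interval of 0.0253 to 5.57 counts and the 16 counts one of 9.14 to 26.0, which cover counting error only. *GDF6* was 28.8-fold higher in SZCs, a log2 difference of 4.85 (SE 0.84, FDR 3.32e-05 in the exact test of edgeR), and ranked 39th of all tested genes by the size of its change. It passed whichever library was left out, with log2 differences from 4.04 without DZC replicate 1 to 7.46 without DZC replicate 2, where the deep zone rests on the single count.

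The ratio of *GDF6* to *GDF5* within a library does not depend on how libraries are scaled, and gene lengths cancel when it is compared between zones. Its log2 value was -2.15 and -2.69 in SZCs against -8.28 and -3.87 in DZCs. The zones did not overlap, and the mean difference was 3.66, with a lower ratio in both DZC libraries. It was 1.45 without DZC replicate 1 and 5.86 without DZC replicate 2, which leaves only the library with a single *GDF6* count. With 2 libraries against 2, an exact two-sided permutation test cannot give a p below 0.333, which is the value for any such separation.

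*GDF10*, also called *BMP3B* (ENSBTAG00000001019), gave 27686 and 16628 counts in SZCs against 2109 and 440 counts in DZCs. This gave 1258 and 716 CPM in SZCs and 131 and 19.7 CPM in DZCs. The zones did not overlap, and the lower SZC library was 5.46-fold above the higher DZC library. The DZC libraries differed from each other by 6.65-fold, whereas the SZC libraries differed by 1.76-fold. *GDF10* was 13.1-fold higher in SZCs, a log2 difference of 3.71 (SE 0.85, FDR 0.00653 in the exact test of edgeR). In contrast to *GDF6*, the lower level was that of DZC replicate 2. The genes of hypertrophic cartilage and bone differed between the DZC libraries in both directions. *COL10A1*, *MMP13* and *IBSP* gave 221, 468 and 268 counts in DZC replicate 2 and 0 counts in DZC replicate 1, whereas *IHH* was at 12.1 CPM in DZC replicate 1 and 2.15 CPM in DZC replicate 2, and *PHOSPHO1* at 4.04 and 2.20 CPM. The part of these genes' cells in the *GDF10* level was not tested. Its log2 difference was 5.65 without DZC replicate 1 and 2.93 without DZC replicate 2, and its FDR was 0.0631 without SZC replicate 1, with a log2 difference of 3.24.

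*GDF2* (ENSBTAG00000005004) was low in SZCs and was not counted in DZCs. It had 42 and 12 counts in the SZC libraries, or 1.91 and 0.517 CPM, and 0 counts in both DZC libraries. With 3 counts in each DZC library as the limit, the mean SZC level was at least 7.55-fold higher. For the lower SZC library against the higher of the limits the bound was 2.77-fold. *GDF2* passed with edgeR's exact test (FDR 0.00371), and could not be tested without SZC replicate 1, since it then had too few counts.

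*GDF2* and *GDF10* are neighbours in the genome. In the RefSeq annotation of assembly ARS-UCD2.0, in which all 10 ligands were found by name, no other protein-coding gene lies between them, and *RBP3* is on the other side of *GDF2*. *RBP3* had 1, 3, 0 and 1 counts in SZC replicates 1 and 2 and DZC replicates 1 and 2. As a share of the counts of both genes, *GDF2* took 0.151% in SZC replicate 1 (95% exact binomial interval 0.109% to 0.205%) and 0.0721% in SZC replicate 2 (0.0373% to 0.126%). At the pooled SZC ratio, the *GDF10* counts of the DZC libraries would go with 2.57 and 0.536 counts of *GDF2*, both under 3 counts. A fall of *GDF2* relative to *GDF10* could therefore not be detected in either DZC library at this depth. Whether the *GDF2* counts come from its own transcripts or from reads that run on between the neighbours was not tested.

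*BMP2* encodes a ligand that promotes cartilage and bone formation (ENSBTAG00000005111), and had the lowest gene-wise dispersion of the 9 tested ligands. It gave 773 and 954 counts in SZCs against 508 and 697 counts in DZCs, or 35.1 and 41.1 CPM and 31.6 and 31.2 CPM. The SZC libraries lay above the DZC libraries, but by as little as 1.11-fold. Its log2 difference was 0.28 (SE 0.34, FDR 0.99 in the exact test of edgeR), with a 95% interval of -0.39 to 0.94. At this number of libraries no zonal difference could be detected, and the interval leaves room for levels up to 1.92-fold higher in SZCs.

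*BMP4*, the nearest relative of *BMP2* (ENSBTAG00000003835), had the highest gene-wise dispersion of the 9. It gave 222 and 499 counts in SZCs against 15 and 225 counts in DZCs. Its levels were 10.1 and 21.5 CPM in SZCs and 0.933 and 10.1 CPM in DZCs. DZC replicate 2 thus matched SZC replicate 1, while DZC replicate 1 was 10.8-fold below DZC replicate 2. The log2 difference was 1.51 (SE 1.01, FDR 0.825 in the exact test of edgeR), with a 95% interval of -0.46 to 3.49. In separate fits it was 4.09 without DZC replicate 2 and 0.65 without DZC replicate 1. DZC replicate 1, the library lowest in *BMP4* and in *GDF6*, was also the library with the lowest summed levels of the 5 proliferation genes, at 11.1 CPM, and of the 6 fibroblast genes, at 4291 CPM. The fibroblast sum was carried by *COL1A1*, *COL1A2* and *COL3A1*, whereas *PDPN* of the same list was highest in DZC replicate 1, at 1103 CPM. The part of these cells in the ligand levels was not tested, and fewer cells of a type cannot be told apart from less RNA per cell in such libraries.

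*BMP5*, *BMP6* and *BMP7* form a subgroup of related ligands, and 0 of these 3 passed. *BMP6* (ENSBTAG00000019234) gave 1145 and 1678 counts in SZCs against 697 and 348 counts in DZCs, or 52.0 and 72.3 CPM and 43.4 and 15.6 CPM. The zones did not overlap, but the nearest libraries were only 1.20-fold apart. Its log2 difference was 1.08 (SE 0.55, 95% interval -0.01 to 2.16), with an unadjusted p of 0.0563 and an FDR of 0.581 with edgeR's exact test. In separate fits the log2 difference was 2.00 without DZC replicate 1 and 0.54 without DZC replicate 2. Thus *BMP4* and *BMP6* each had the largest difference when a different DZC library was left out.

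*BMP5* (ENSBTAG00000012870) gave 175 and 255 counts in SZCs against 72 and 223 counts in DZCs. Its levels were 7.95 and 10.99 CPM in SZCs and 4.48 and 10.00 CPM in DZCs, so the zones overlapped. The log2 difference was 0.38 (SE 0.58, FDR 1 in the exact test of edgeR), with a 95% interval of -0.75 to 1.52. *BMP7* (ENSBTAG00000015362) had 4 and 13 counts in SZCs and 4 and 12 counts in DZCs, or 0.182 and 0.560 CPM and 0.249 and 0.538 CPM. Its log2 difference was -0.10 (SE 0.94, 95% interval -1.95 to 1.74), and its sign changed when libraries were scaled by their totals. In both zones replicate 2 had the higher level of *BMP5* and of *BMP7*.

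*BMP3* (ENSBTAG00000017642), the ligand known to oppose BMP signals, was at the limit of detection. It had 6 and 1 counts in SZCs and 1 and 6 counts in DZCs. No comparison is made for it, since each zone had a library under 3 counts.

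**Figure D2:**
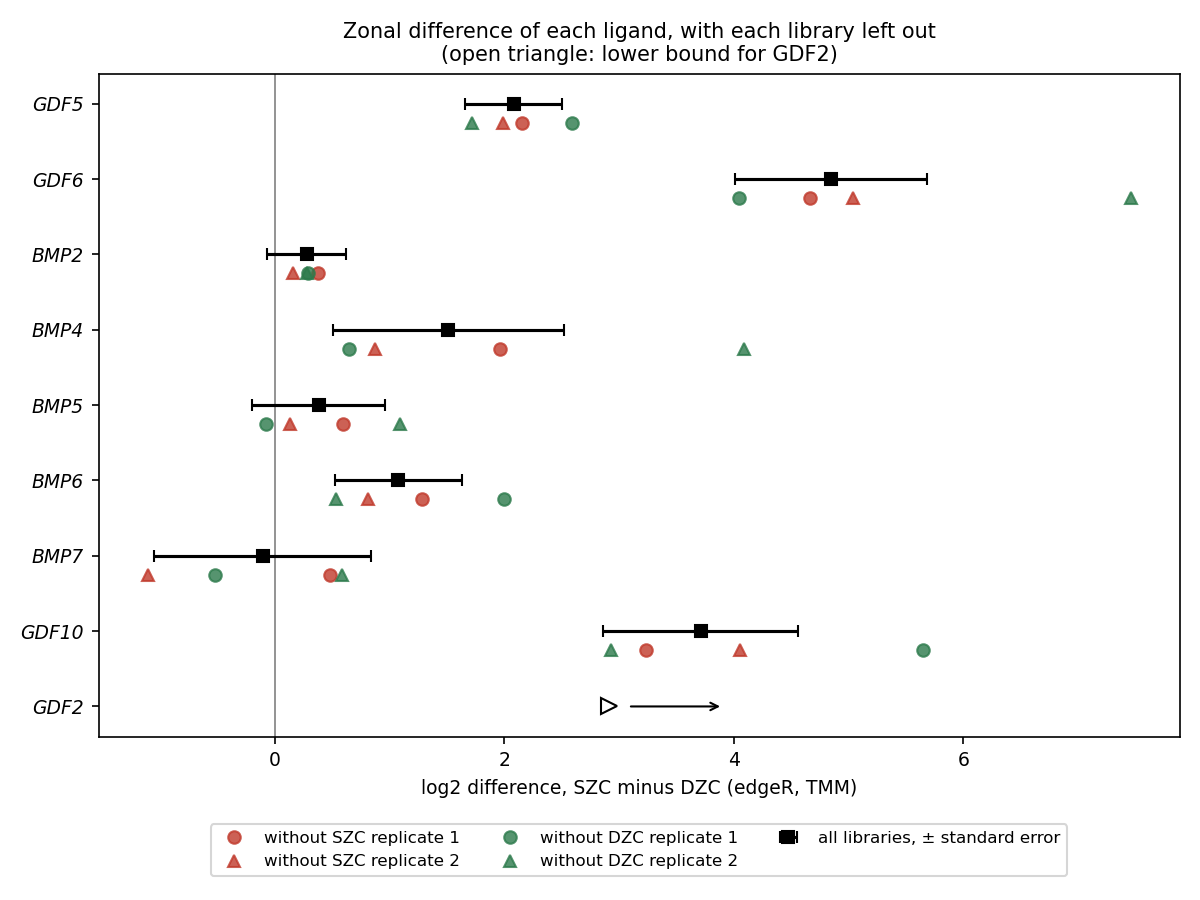
Log2 difference of SZCs minus DZCs for the 9 tested ligands, with all libraries (squares, with the standard error) and after leaving out single libraries (red or green symbols); the open triangle marks the lower bound of *GDF2*. *GDF5*, *GDF6* and *GDF10* stay above 1.7 in all fits shown, *BMP4* ranges from 0.65 to 4.09, and *BMP5* and *BMP7* fall on both sides of 0.

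Because *BMP2* was steady on the TMM scale, it was chosen after its values were seen as a reference within each library. Such a ratio does not depend on how libraries are scaled, but the choice of *BMP2* did. With library totals its log2 difference was 0.58, so the ratios are no separate check of the TMM results. The log2 ratio of *GDF5* to *BMP2* counts was 0.76 and 0.70 in SZCs against -0.71 and -1.57 in DZCs. Both SZC libraries lay above both DZC libraries. The difference between zone means was 1.87 for *GDF5*, 5.53 for *GDF6* and 3.95 for *GDF10*, and the zones did not overlap for any of these 3. Without DZC replicate 1 these differences were 2.30, 3.75 and 5.31, and without DZC replicate 2, where *GDF6* rests on a single count, they were 1.44, 7.30 and 2.59. For *BMP6* the ratio was 0.57 and 0.81 in SZCs and 0.46 and -1.002 in DZCs. Its mean difference of 0.96 became 1.69 without DZC replicate 1 and 0.23 without DZC replicate 2. The ratios of *BMP4*, *BMP5* and *BMP7* to *BMP2* overlapped between the zones.

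The ligands also differed in how closely libraries of a zone matched. The biological coefficient of variation of edgeR (the square root of the gene-wise dispersion) had a median of 0.312 over all tested genes and an upper quartile of 0.412. *BMP2* (0.233) and *GDF5* (0.289) lay below that median. *BMP6* (0.381) and *BMP5* (0.394) lay between the median and the upper quartile. The values of *GDF6* (0.523), *BMP7* (0.551), *GDF10* (0.586), *GDF2* (0.634) and *BMP4* (0.694) were above the upper quartile. Of the 4 ligands called, *GDF5* was thus the only one whose libraries varied less than the median gene, and it had the smallest change.

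The other genes of the BMP pathway were examined as 5 lists with 38 names, of which 31 were found in the count table by name and 30 were tested. In all, 4 of the 30 passed with SZCs higher and 0 with DZCs higher in the exact test of edgeR, and their median log2 difference was 0.07. The calls were 1 of 5 proteases, 2 of 9 secreted antagonists, 0 of 7 receptors, 0 of 5 SMADs and 1 of 4 response genes. The share called in either direction among all tested genes was 2.93%. All 4 calls were lost without SZC replicate 1, the fit with the fewest calls over all genes among those with a library left out. Without DZC replicate 2 further pathway genes were called, and these went in both directions.

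*PCSK6* encodes a proprotein convertase, an enzyme of the kind that cleaves BMP precursors to release the active ligand. It gave 753 and 717 counts in SZCs against 55 and 139 counts in DZCs, a log2 difference of 2.74 (SE 0.45, FDR 1.80e-06 in the exact test of edgeR). *FURIN*, a convertase with the same role and the protease with the highest mean CPM over the 4 libraries (lengths not considered), was at 286 and 267 CPM in SZCs and 373 and 201 CPM in DZCs. Its log2 difference was -0.05 (SE 0.44), and its DZC libraries lay on both sides of the SZC libraries.

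Among secreted regulators, *BMPER* was at 236 and 170 CPM in SZCs and 42.2 and 32.4 CPM in DZCs. It encodes an extracellular protein that binds BMPs, and its log2 difference was 2.44 (SE 0.38, FDR 4.68e-07 in the exact test of edgeR). *TWSG1*, which acts together with chordin on BMPs and can inhibit or favour signalling, was at 398 and 297 CPM in SZCs and 76.0 and 101 CPM in DZCs. Its log2 difference was 1.97 (SE 0.39, FDR 0.000114 in the same edgeR fit). Of the 9 antagonists tested, 4 had a positive and 5 a negative log2 difference, from -2.17 to 2.44.

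No receptor passed. The receptor with the highest mean CPM over the 4 libraries (lengths not considered) was *ACVR1*, a type I receptor, at 158 and 108 CPM in SZCs and 128 and 86.3 CPM in DZCs. The largest difference was that of *BMPR1B*, a type I receptor that *GDF5* prefers, with a log2 difference of -0.38 (SE 0.60, 95% interval -1.55 to 0.79). All 7 receptors overlapped between the zones, and their log2 differences lay between -0.38 and 0.32.

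Of the SMADs, *SMAD7*, an inhibitor of signalling, had the largest log2 difference, 0.84 (SE 0.47, FDR 0.678 in the exact test of edgeR). *SMAD4*, the shared partner of receptor-regulated SMADs, was at 96.1 and 97.4 CPM in SZCs and 84.6 and 88.8 CPM in DZCs. Of the response genes, *BAMBI*, a BMP-induced membrane protein that blocks receptor activity, gave 289 and 291 counts in SZCs against 45 and 102 counts in DZCs. It had a log2 difference of 1.79 (SE 0.50, FDR 0.0224 in the exact test of edgeR), and its call was lost when libraries were scaled by their totals (FDR 0.0786) and without SZC replicate 1 (FDR 1) or SZC replicate 2 (FDR 0.806). With the quasi-likelihood test of edgeR and a replicate block its FDR was 0.0518. *ID1*, a direct BMP target, was at 364 and 374 CPM in SZCs and at 693 and 235 CPM in DZCs, so the DZC libraries lay on either side. The log2 differences of *ID1*, *ID2* and *ID3* were -0.33, -0.08 and -0.09, and 0 of these 3 passed. Without DZC replicate 2, *ID1* and *SMAD7* were both called, in opposite directions. DZC replicate 1 was above both SZC libraries in *ID1* and below them in *SMAD7*, at 6.47 CPM against 14.4 and 17.3 CPM.

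Of 14 other ligands of the family that are not among the 10, 9 were found by name and 5 were tested, with 0 called. The largest difference was that of *GDF1*, with 99 and 97 counts in SZCs and 47 and 51 counts in DZCs, a log2 difference of 0.74 (SE 0.57, FDR 0.873 in the exact test of edgeR). *GDF7*, the remaining close relative of *GDF5* and *GDF6*, had 0 counts in all 4 libraries, which allows up to 3 counts in each.

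**Figure D3:**
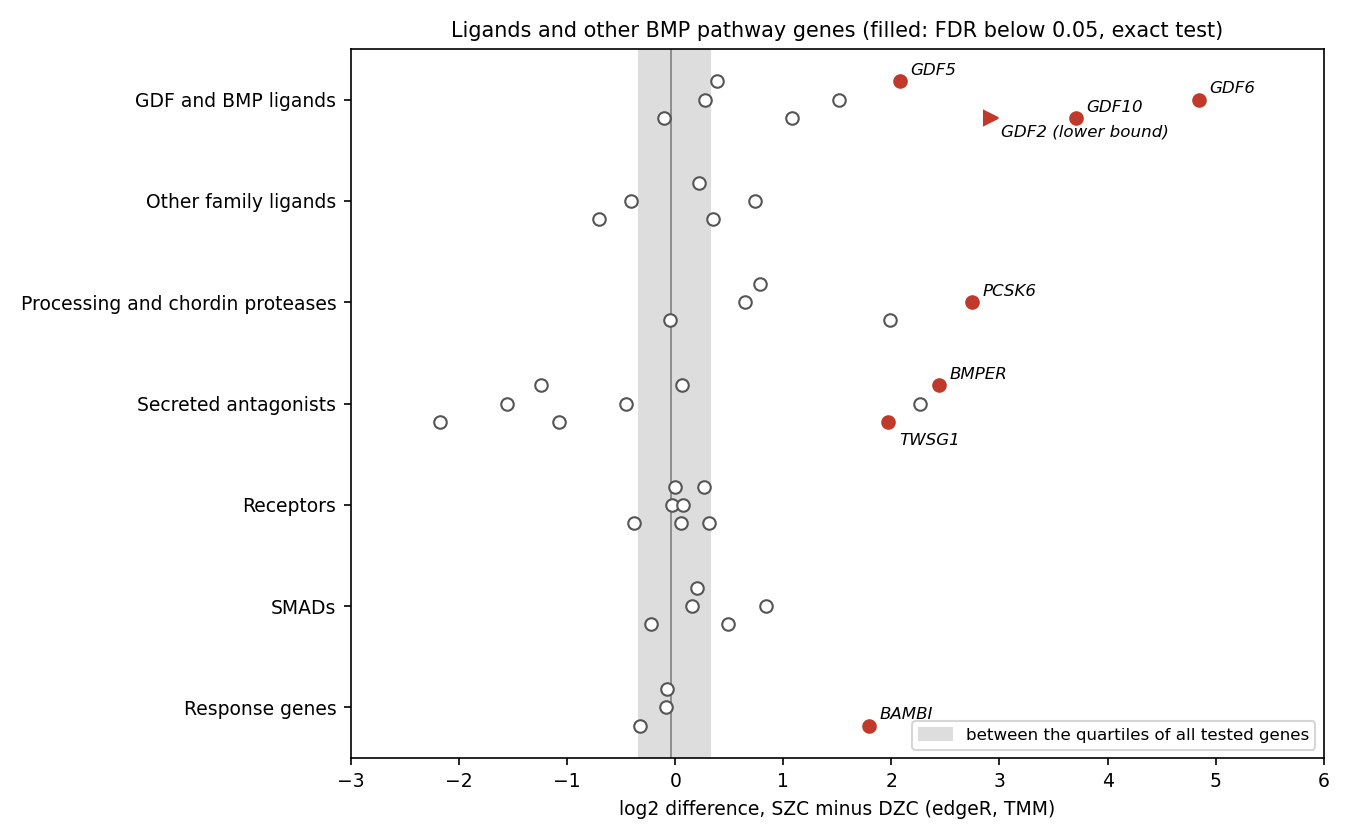
Log2 difference of SZCs minus DZCs for each tested ligand and pathway gene (circles, by list), with filled red circles for an FDR below 0.05 with edgeR's exact test and the range between the quartiles of all tested genes shaded, from -0.34 to 0.32. The called genes all lie to the right, and the 7 receptors stay between -0.38 and 0.32.

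For each ligand called, the 3 named genes with the nearest profile over the 4 libraries were found by the Euclidean distance between centred log2(CPM + 1) values. The profile of *GDF10* had a single close match, *DLK1*, which encodes a transmembrane protein of the Notch ligand kind, at a distance of 0.26. *DLK1* gave 7007 and 4479 counts in SZCs against 649 and 121 counts in DZCs, with the same order of libraries as *GDF10*. The next genes, *CHRDL2* and *VIT*, were at distances of 1.32 and 1.50. *CHRDL2* is a secreted BMP antagonist of the chordin family and was at 210 and 102 CPM in SZCs and 60.5 and 4.44 CPM in DZCs. It did not pass with edgeR's exact test (FDR 0.514), nor in DESeq2 (FDR 0.812), in the quasi-likelihood test (FDR 0.661), or without SZC replicate 1 (FDR 1) or SZC replicate 2 (FDR 0.303). It passed with the quasi-likelihood test and a replicate block (FDR 0.0308) and in the exact test of edgeR without either DZC library (FDR 3.04e-15 and 0.00971), where its log2 difference moved from 2.27 to 5.14 without DZC replicate 1 and 1.38 without DZC replicate 2.

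The gene nearest to *GDF6* was *SCARA5*, a ferritin receptor, at a distance of 0.18, with 292 and 246 counts in SZCs and 0 and 11 counts in DZCs. *GAS1*, a cell surface protein that binds hedgehog proteins, followed at 0.37 and *THSD4* at 0.47. *GDF6* was below 1 CPM in both DZC libraries, so the added 1 in log2(CPM + 1) shrinks its differences there. Between the DZC libraries *GDF6* differed 11.5-fold, *GAS1* 2.7-fold and *THSD4* 1.5-fold. The genes nearest to *GDF5* were the semaphorin *SEMA6A* (0.33), the hedgehog co-receptor *BOC* (0.36) and the Slit receptor *ROBO2* (0.38). *SEMA6A* gave 711 and 705 counts in SZCs against 127 and 125 counts in DZCs. For *GDF2*, which was below 1 CPM in 3 of the 4 libraries, the nearest genes were *RIPOR3* (0.07), *ST6GAL2* (0.11) and *BEGAIN* (0.13), and 0 of these 3 passed the FDR threshold. These genes were selected for their likeness over the same 4 libraries, so the match is a description and carries no test.

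**Figure D4:**
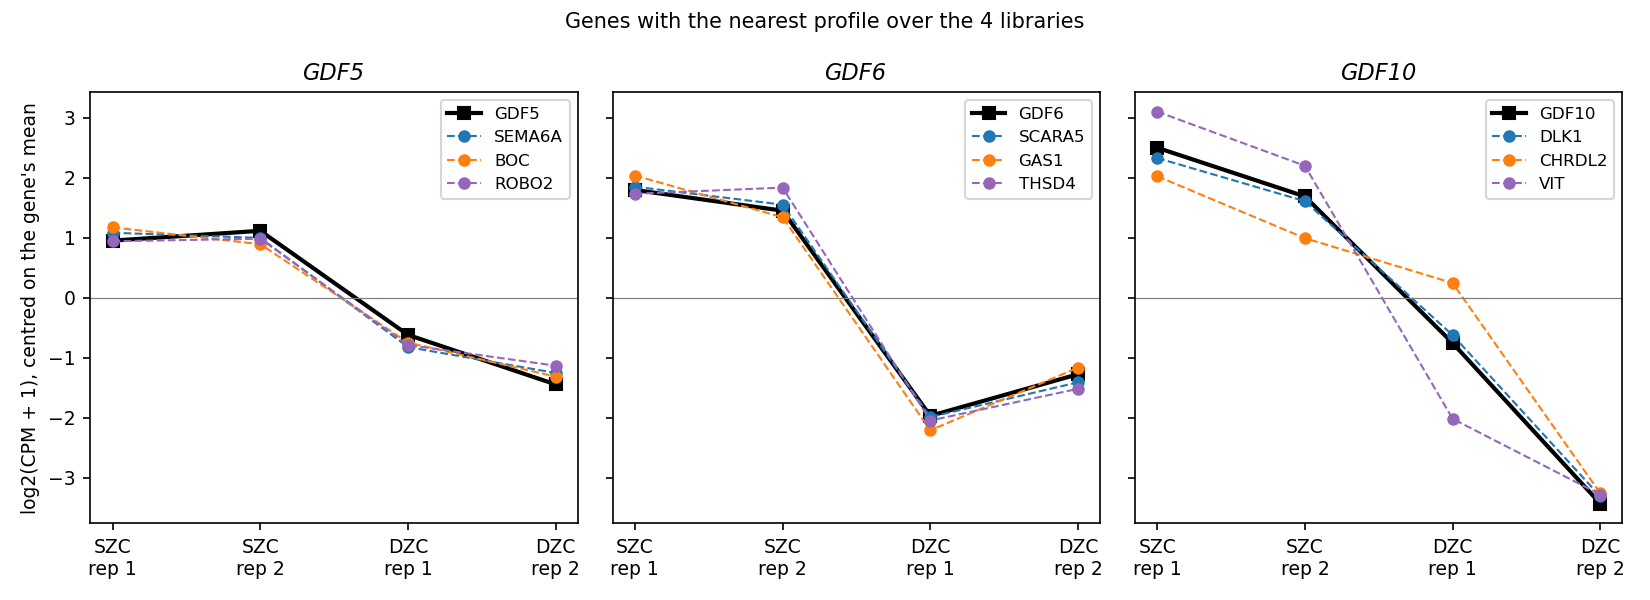
Centred log2(CPM + 1) of *GDF5*, *GDF6* and *GDF10* (black squares) and of the 3 genes nearest to each (coloured circles) in the 4 libraries. *GDF6* is lowest in DZC replicate 1, whereas *GDF5* and *GDF10* are lowest in DZC replicate 2, and *DLK1* follows *GDF10* at a distance of 0.26.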

How the data were processed

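RNA-Seq counts of 2 SZC and 2 DZC libraries were used. The authors aligned 75 bp single-end reads of SMART-Seq v4 libraries to Ensembl build UMD 3.1 (release 88) with STAR 2.5.2b and deposited counts per gene without normalization, counted without regard to strand, so reads of antisense partners count together. Their own table of log2 fold changes and FDR values was used only to fill blank gene names. ATAC-Seq was not analysed here.

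edgeR 4.0.16 (R 4.3.3) was run with TMM scaling, the default filter on low counts, gene-wise dispersions and the exact test, with Benjamini–Hochberg adjustment (FDR, threshold 0.05) over 12857 genes, as the study's methods name for the test. Standard errors and 95% intervals follow from the negative binomial model. Replicates differed by more than sampling noise (chi-square per degree of freedom 50.5 for SZCs and 245 for DZCs). The study calls its duplicates biological, but joints or animals are not given per library, and p-values measure the spread between these libraries. The ligands and lists were chosen with earlier results of these data known. Named genes are the ligands, *PRG4*, called members of the BMP pathway and family lists, the largest change of such a list with no call, the highest level of each pathway list and the 3 nearest profiles. The ratios to *BMP2* and *GDF5* were chosen, and *RBP3*, *GDF7*, *ID2*, *ID3* and the genes of the cell type lists named, after their values were seen. Sequences of the ligands and transcript lengths were not used here. The exact test and the quasi-likelihood test with and without a replicate block were first tested on simulated counts. The simulation used the default filter, TMM scaling and all 4 libraries, and the other fits were not simulated. Alternatives were the quasi-likelihood test with and without a replicate block, DESeq2 1.42.0, other filters and scalings, and each library left out, in which the lone library of a zone is assumed to vary like the others.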

Additional observations from a re-analysis of the deposited data

How the results depend on the processing

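The quasi-likelihood test of edgeR called 0 genes, 0 ligands and 0 pathway genes, with 1126, 4 and 6 at an unadjusted p below 0.05. Under it the FDR was 0.192 for *GDF5*, 0.208 for *GDF6*, 0.304 for *GDF2* and 0.328 for *GDF10*. The cause was not tested. Superficial and deep slices were cut from the same cores, but whether same-numbered libraries share a joint is not given. Their deviations from zone means had a correlation of 0.42 across genes. With the replicate block the quasi-likelihood test called 347 genes (2.70%), the same 4 ligands and 4 pathway genes, with *CHRDL2* in place of *BAMBI*. With each library left out, 58 to 2725 genes, 1 to 5 ligands and 0 to 11 pathway genes were called. Only *GDF6* of the ligands passed without SZC replicate 1, and the lone library of a zone was assumed to vary like the others. The 4 ligands also passed in DESeq2, with no filter, with DESeq2 size factors and with library totals. Keeping only genes above 1 CPM in 2 or more libraries removed *GDF2* and *BMP7* and kept 3 ligands called. Scaling by library totals moved the median log2 difference of all genes by 0.30, that of *GDF5* to 2.47 and that of *BMP7* to 0.14. *BMP7* also turned to 0.48 without SZC replicate 1 and 0.59 without DZC replicate 2 and ranged from -1.10 to 0.59 over the libraries left out. *BMP5* turned to -0.0725 without DZC replicate 1 and ranged from -0.0725 to 1.10. With 2 libraries a zone, differences of the size seen for *BMP2*, *BMP5* and *BMP7* cannot be resolved.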
